A study of Mus musculus with 6 samples.

Results

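The Hox cluster genes were taken as every gene whose symbol is Hoxa, Hoxb, Hoxc or Hoxd followed by a number and that has a probe set annotated to that symbol alone. This gave 33 genes with 48 probe sets, of 18194 genes with such a probe set on the array. C3H10T1/2 cells are a line of mouse mesenchymal cells with the capacity to become fat, cartilage, bone or muscle. The treated cells received 50 ng/ml of the bone morphogenetic protein BMP4, a secreted signal, while they proliferated, and the control cells received none. Total RNA was taken from both after they had grown past confluence, with 3 samples in each group and 1 single-colour array for each sample. The series asked which genes respond to BMP4 as these cells commit to the fat lineage. The labels name no genotype, clone or passage, and do not say that replicates were separate cultures, so the spread that p-values rest on may be technical.

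Hox genes encode homeodomain transcription factors that tell cells where along the body axis or the limb they lie. They sit in 4 clusters on different chromosomes, and genes in the same place in different clusters, the paralogues, share a number. In the embryo, low-numbered genes are active towards the head, and high-numbered ones towards the tail and the tips of the limbs. Fibroblasts and other mesenchymal cells keep part of this pattern in culture, so the set of Hox genes that is on is read as a positional code. The RefSeq gene table holds 39 Hox genes in paralogue groups 1 to 13, and 33 of them were analysed here.

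The HoxA promoters are shown because the BMP4-associated rises lay in that cluster. Hoxa3 and Hoxa5 each had a probe set that passed the test, and Hoxa2, their neighbour towards the low-numbered end, had groups that did not overlap. Each sequence covers 300 bases around the gene's start, from RefSeq on GRCm38.p6, and lies on the minus strand at chr6:52164782-52165081 for Hoxa2, chr6:52213018-52213317 for Hoxa3 and chr6:52204538-52204837 for Hoxa5. Capitals mark TAAT, the core that homeodomains bind, or its reverse complement ATTA.
Hoxa2: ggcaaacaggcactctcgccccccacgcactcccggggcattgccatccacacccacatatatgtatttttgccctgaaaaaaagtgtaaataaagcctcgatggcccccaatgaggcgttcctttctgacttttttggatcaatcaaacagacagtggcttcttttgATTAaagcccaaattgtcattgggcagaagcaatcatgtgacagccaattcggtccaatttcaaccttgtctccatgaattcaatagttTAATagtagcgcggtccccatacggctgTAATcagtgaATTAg
Hoxa3: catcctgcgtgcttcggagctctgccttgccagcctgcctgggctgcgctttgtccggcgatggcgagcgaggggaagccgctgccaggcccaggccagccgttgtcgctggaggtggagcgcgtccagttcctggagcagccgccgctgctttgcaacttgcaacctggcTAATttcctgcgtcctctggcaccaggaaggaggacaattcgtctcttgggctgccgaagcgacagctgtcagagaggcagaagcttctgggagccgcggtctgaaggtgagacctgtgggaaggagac
Hoxa5: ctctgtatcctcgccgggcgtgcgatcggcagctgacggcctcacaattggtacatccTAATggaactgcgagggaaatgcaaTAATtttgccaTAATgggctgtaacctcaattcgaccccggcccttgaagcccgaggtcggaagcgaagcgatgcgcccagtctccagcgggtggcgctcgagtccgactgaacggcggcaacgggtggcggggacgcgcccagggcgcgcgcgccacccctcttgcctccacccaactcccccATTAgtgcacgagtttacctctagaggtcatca
TAAT occurred on either strand 4 times in the Hoxa2 window, once in that of Hoxa3 and 4 times in that of Hoxa5, and 58.0% of 32851 mouse promoter windows of this length hold it at least once. GGCGCC, a GC-rich element that BMP-activated Smads can bind, was absent from all 3 windows and occurs in 11.9% of all promoters. CAGACA, another Smad-binding word, occurred once in the Hoxa2 window and in 21.0% of all promoters. TGATNNAT, a joint motif of PBX and HOX proteins, also occurred once in the Hoxa2 window, and in 8.85% of all promoters. GC content was 45.7% for Hoxa2, 64% for Hoxa3 and 61.7% for Hoxa5, against a median of 52.7% over all promoters. These matches are descriptions of the letters, not of binding. In the same table the Hoxa3 gene spans Hoxa4, Hoxa5, Hoxa6 and the noncoding genes Hoxaas2 and Hoxaas3, and Hoxa5 overlaps Hoxaas3. The Hoxa3 window above lies between those of Hoxa6 and Hoxa7. A start of Hoxa3 nearer to Hoxa2, if there is one, was not examined. Whether a probe set of Hoxa3, Hoxa4 or Hoxa5 also reads an overlapping transcript was not tested.

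Background was set at a signal of 29.1, the highest value of any Bacillus subtilis control probe set on any array, because the table carries no detection calls. This value came from BMP4 replicate 2. The brightest of these bacterial probe sets read 23.5, 29.1 and 24.1 in the BMP4 replicates, against 17.1, 16.6 and 21.0 in the control replicates, so a line set on the BMP4 arrays was applied to both groups. The 2% trimmed mean was 150 on every array. Median signals ran from 37.6 to 42.6 with BMP4 and from 35.2 to 37.3 without it. On the BMP4 arrays 56.0% to 59.0% of probe sets lay above 29.1, against 54.4% to 55.7% of those in control cells. All 6 mesenchymal markers fixed for this purpose (Col1a1, Col1a2, Col3a1, Pdgfrb, Thy1 and Vim) were above background on all 6 arrays, with summed signals of 34494 to 40662 with BMP4 and 30270 to 37850 without it. Of 4 epithelial markers Epcam and Krt8 were above background on all arrays and 2 on none (sums of 295 to 562 with BMP4 and 439 to 536 without). Of 4 endothelial markers only Tek was above background on all 6 arrays and 1 on none (118 to 191 with BMP4, 204 to 214 without). Of 4 blood markers only Cd68 was, and 2 were above it on none (68.4 to 109.9 with BMP4, 80.1 to 88.5 without). Their part in the Hox values was not tested.

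At a line of 29.1, Hox signals above background lay mostly in the HoxA cluster. A gene was called above background where at least 1 of its probe sets exceeded 29.1 on all 3 arrays of a group. With BMP4 this held for 11 of the 33 Hox genes, and in control cells for 8, while 63.1% and 61.9% of all genes passed it on the BMP4 and the control arrays. With BMP4 they were Hoxa2, Hoxa3, Hoxa4, Hoxa5, Hoxa7, Hoxa9, Hoxa10, Hoxa11, Hoxa13, Hoxb7 and Hoxc6. In control cells Hoxa9, Hoxa13 and Hoxb7 were missing from this list and the other 8 passed. Thus 9 of 9 measured HoxA genes were above background with BMP4 and 7 of 9 without it. In the HoxB cluster it was 1 of 9 with BMP4 and 0 of 9 without, in HoxC 1 of 7 in both groups, and in HoxD 0 of 8 in both. These counts rest on the best probe set of each gene. Hoxa4, Hoxa9, Hoxa10 and Hoxc6 each had another probe set that was below 29.1 on every array. A probe set annotated to both Hoxb8 and Hoxb7 was below 29.1 on every array as well.

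**Figure D1:**
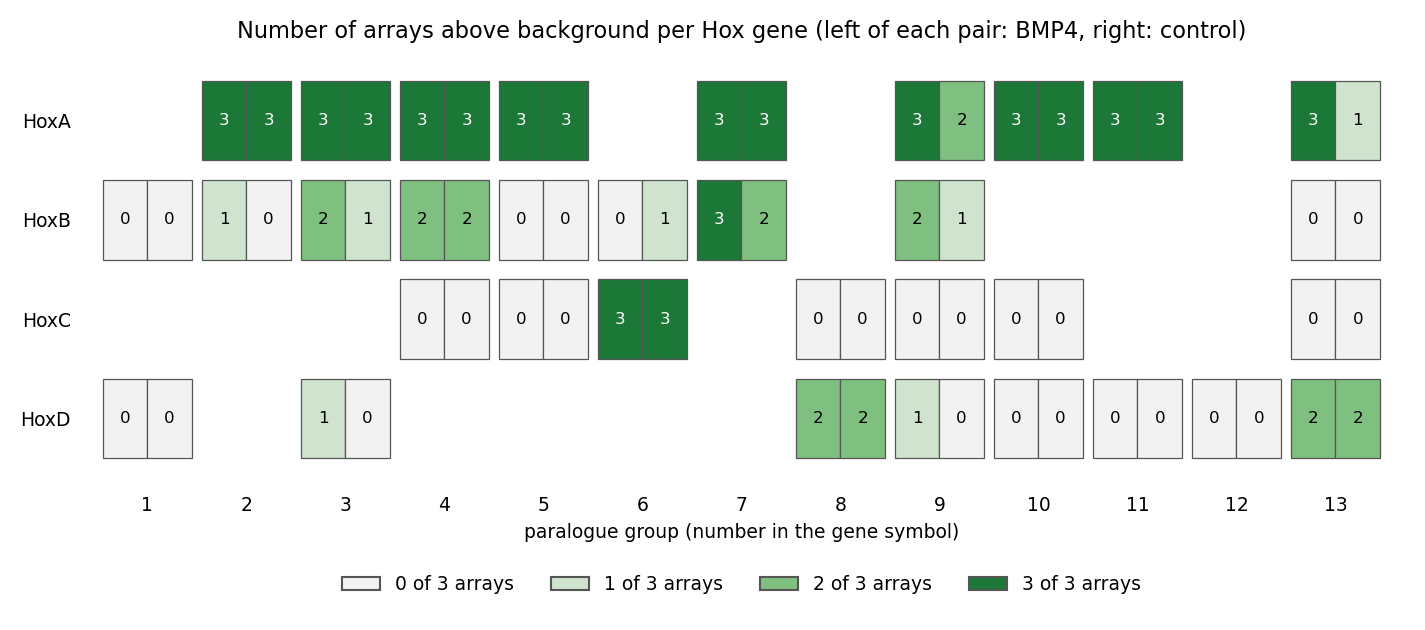
Each pair of boxes is 1 Hox gene, placed by cluster and paralogue group, and the number and shade give how many of the 3 BMP4 arrays (left box) and 3 control arrays (right box) had its best probe set above the background signal of 29.1. All HoxA genes with a probe set reach 3 of 3 arrays with BMP4, while among the other clusters only Hoxb7 and Hoxc6 do.

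Hoxa9, Hoxa13 and Hoxb7 lay near the line that separates the groups in this count. Hoxa9, which acts in blood formation and limb outgrowth, had signals of 32.7, 63.2 and 41.5 with BMP4 and 42.2, 14.2 and 34.9 without it. Only control replicate 2 was below background, and the groups overlapped. Hoxb7, a gene of the trunk region, had 52.9, 31.5 and 32.8 with BMP4 and 43.0, 28.2 and 40.4 without it, so that 1 control array lay just under the line. With each array judged by its own highest bacterial control signal, 14 Hox genes passed on the BMP4 arrays and 15 on the control arrays, so the higher count with BMP4 turned round. By that measure Hoxa13 and Hoxb7 passed in control cells and Hoxa9 did not. In control cells the genes outside HoxA that passed by it were Hoxb3, Hoxb4, Hoxb7, Hoxb9, Hoxc6, Hoxd8 and Hoxd13. On the BMP4 arrays they were Hoxb3, Hoxb4, Hoxb7, Hoxc6 and Hoxd8. The HoxA share of the genes above background thus depended on the line. At 58.2, which is 2 times the background used here, 5 passed in both groups, and they were the same genes, Hoxa2, Hoxa3, Hoxa5, Hoxa7 and Hoxa10. Leaving out BMP4 replicate 3 raised the BMP4 count to 14, and leaving out control replicate 2 raised the control count to 12.

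The other clusters were dim. Of the HoxB genes, Hoxb1, Hoxb5 and Hoxb13 were above background on no array, with signals of 1.1 to 23.0, and Hoxb2, Hoxb3, Hoxb4, Hoxb6 and Hoxb9 passed on some arrays only. Hoxb4, which is known for expanding blood stem cells, had 31.3, 32.6 and 25.3 on its brighter probe set with BMP4 and 32.8, 34.2 and 6.8 in control cells. Of the HoxC genes, 6 of 7 were above background on no array, with signals of 0.8 to 27.6. The exception was Hoxc6, a gene of the thoracic and forelimb level. Its probe set 1427361_at gave 86.3, 47.0 and 52.0 with BMP4 and 35.4, 44.1 and 53.3 without, and the groups overlapped. Of the HoxD genes, Hoxd1, Hoxd10, Hoxd11 and Hoxd12 were above background on no array, with signals of 1.1 to 18.7. Hoxd8 and the digit gene Hoxd13 passed on 2 of 3 arrays in each group, and Hoxd3 and Hoxd9 on 1 BMP4 array. A probe set under the line has only an upper bound on its signal. Genes above background on no array were thus not detectable at this line rather than shown to be off.

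Few Hox probe sets changed with BMP4, and they belonged to Hoxa3 and Hoxa5. Differences were tested with limma on log2(signal + 16), which understates changes of dim genes, and a probe set entered the test when its mean over the 6 arrays was above the 40th percentile, a signal of 23.5. This kept 19 Hox probe sets of 15 genes, while 29 probe sets, among them all those of 18 genes, were too dim. Of the 19 probe sets, 3 were higher at an adjusted p under 0.05 (Benjamini-Hochberg over all 27022 tested), which is 15.8% against 4.2% of all probe sets. They were 2 probe sets of Hoxa3 and 1 of Hoxa5. None was lower by limma, against 4.91% of all probe sets, and at an unadjusted p under 0.05 there were 5 higher and 1 lower. The share of all probe sets or genes at an unadjusted p under 0.05 was not counted. Such counts, here and for the gene lists below, thus cannot be judged against it. Counted by the probe set with the highest mean of each gene, 1 of 15 genes was higher, Hoxa3, which at 6.67% is close to the 5.03% of all genes called higher, and 0 were lower, against 5.66%. The median log2 change of the 15 genes was 0.17, against 0.03 over all 12966 genes tested. The filter kept dim members only where their signal was high enough, so these 15 do not stand for all 33 genes.

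The count of changed Hox genes depended on the setting. With each array centred on its median, 1 probe set (Hoxa5) and 0 genes were higher, and 25.1% of all calls pointed upward, against 46.1% as deposited. Without the intensity trend no Hox probe set passed, and without control replicate 3 none did either. Leaving out BMP4 replicate 1 or 3 or control replicate 1 or 2 left 1 higher probe set. Cells that express a gene becoming more frequent and more RNA in each cell cannot be told apart in these bulk samples.

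**Figure D2:**
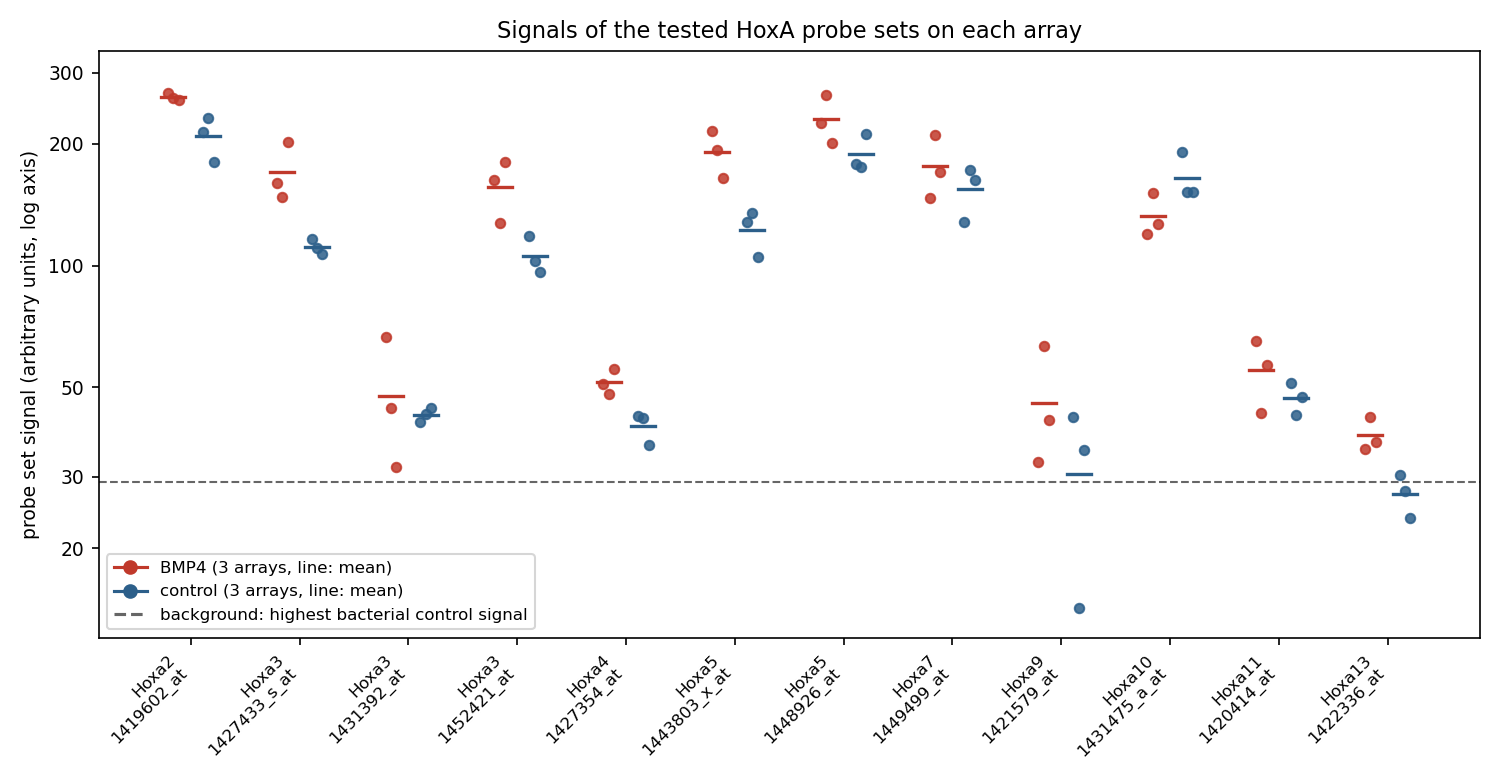
Signals on a log axis for the 12 tested HoxA probe sets, ordered by gene along the cluster, with 3 BMP4 arrays on the left and 3 control arrays on the right of each pair, a short line at each mean and a dashed line at the background of 29.1. The BMP4 points of Hoxa2, 2 Hoxa3 probe sets, Hoxa4, 1 Hoxa5 probe set and Hoxa13 lie above all control points, and those of Hoxa10 lie below them.

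Hoxa3, which is needed for the thymus, the parathyroid and other derivatives of the pharynx in mice, rose about 1.5-fold. On probe set 1427433_s_at its signals were 159.7, 148.2 and 202.5 with BMP4 and 116.3, 110.3 and 106.6 without it. Every BMP4 array was above every control array, and the control arrays were close to each other. The means were 170 ± 28.6 with BMP4 and 111 ± 4.90 without (SD, n = 3 each), a log2 change of 0.54 ± 0.12 (SE), or 1.45-fold (limma adjusted p = 0.020). A further probe set, 1452421_at, is designed from the same sequence record and so is not independent. It gave 162.6, 127.1 and 180.1 with BMP4 against 118.4, 102.5 and 96.5 without, a log2 change of 0.49 ± 0.14 (limma adjusted p = 0.047), and this call was lost in 10 of 17 alternatives.

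The other Hoxa3 probe sets, built on other sequence records, were dimmer. Probe set 1429398_at, which did not enter the test, had 33.2, 33.5 and 25.4 with BMP4 and 21.2, 13.8 and 9.3 without it. Its groups did not overlap, and all 3 control arrays were below background. Probe set 1431392_at had 66.7, 44.5 and 31.8 with BMP4 and 41.0, 43.0 and 44.3 without, with overlapping groups and a log2 change of 0.08 (95% interval -0.38 to 0.54, limma adjusted p = 0.867). The suffix of the main probe set, 1427433_s_at, marks probes shared by several transcripts. The rise of Hoxa3 on it was not past the test without BMP4 replicate 3 (0.42, limma adjusted p = 0.0687), without control replicate 1, 2 or 3 (adjusted p = 0.051, 0.0638 and 0.0643), with median centring (0.45, adjusted p = 0.0631) or without the intensity trend (adjusted p = 0.0574).

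Hoxa5, which patterns the neck and chest skeleton and the airways in mice, was read by 2 probe sets that differed in call. On 1443803_x_at the signals were 214.9, 193.6 and 164.7 with BMP4 and 128.2, 134.9 and 105.3 without it, with no overlap. The means were 191 ± 25.2 with BMP4 and 123 ± 15.5 without (SD, n = 3 each), which is a log2 rise of 0.58 with an SE of 0.13 (limma adjusted p = 0.0152). On the brighter 1448926_at the signals were 224.7, 263.5 and 201.4 with BMP4 and 178.6, 175.3 and 211.6 without it. There control replicate 3 lay above BMP4 replicate 3, and the log2 change was 0.26 (95% interval 0.01 to 0.51, limma adjusted p = 0.200). The suffix of the first marks a probe set with probes that can match other transcripts. Its call was lost when either BMP4 replicate 1 or 2 or control replicate 3 was left out (adjusted p = 0.0517, 0.0521 and 0.0557) and without the intensity trend (adjusted p = 0.0566), and held with median centring (0.48, limma adjusted p = 0.028).

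Hoxa2 and Hoxa4, which flank Hoxa3, had values in the same direction that did not pass the test. Hoxa2, which gives the second branchial arch its identity, had signals of 267.7, 259.8 and 256.1 with BMP4 and 213.8, 232.4 and 180.1 without it. All BMP4 arrays were above all control arrays, and the log2 change was 0.31 ± 0.10 (SE; 95% interval 0.09 to 0.53, limma adjusted p = 0.0814). Hoxa4, a gene of neck vertebra identity, had 50.8, 48.0 and 55.5 with BMP4 and 42.5, 41.9 and 35.9 without. These groups did not overlap either, and the log2 change was 0.27 (95% interval -0.09 to 0.62, limma adjusted p = 0.361). Over the 19 tested Hox probe sets, the BMP4 arrays lay wholly above the control arrays at 6 (31.6%), against 15.0% of all probe sets, and wholly below at 1 (5.26%), against 13.2%. The 6 include both Hoxa3 probe sets that passed the test, which are not independent. Over all probe sets, 4040 lay wholly above and 3579 wholly below as deposited, but 2122 and 5570 with each array centred on its median. The Hox counts were not redone with that centring.

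Of the higher-numbered HoxA genes none passed the test, and Hoxa10 was the only HoxA gene with a negative value. Hoxa10, which acts in the lumbar skeleton and the uterus, had signals of 119.6, 150.8 and 126.7 with BMP4 and 190.6, 152.2 and 151.9 without it. Its BMP4 arrays were all below its control arrays, by a small margin at BMP4 replicate 2, with a log2 change of -0.28 ± 0.12 (SE; 95% interval -0.56 to -0.01, limma adjusted p = 0.203). Its other probe set was below background on every array. Hoxa7, a gene of the thoracic level, had 147.2, 210.4 and 170.1 with BMP4 and 128.0, 172.6 and 162.8 without. The groups overlapped, and the log2 change was 0.17 (95% interval -0.15 to 0.48, limma adjusted p = 0.534).

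The limb genes at the far end of the cluster were closer to background. Hoxa11, which shapes the forearm and lower leg, had 65.1, 43.2 and 56.8 with BMP4 and 51.1, 42.6 and 47.3 without it. These overlapped, with a log2 change of 0.16 (95% interval -0.22 to 0.54, limma adjusted p = 0.626). Hoxa13, which shapes the digits and the genital tract, had 35.2, 42.3 and 36.6 with BMP4 and 30.3, 27.7 and 23.7 without. The groups did not overlap, and the log2 change was 0.32 (95% interval -0.07 to 0.71, limma adjusted p = 0.319). Only 1 control array was above 29.1, while all control arrays were above their own highest bacterial control signal. Hoxa9 gave 0.44 with a wide 95% interval of -0.16 to 1.04 (limma adjusted p = 0.381). The log2 changes of Hoxa2, Hoxa3, Hoxa4 and Hoxa5 thus ran from 0.26 to 0.54 with a median of 0.29, and those of the 5 genes from Hoxa7 to Hoxa13 from -0.28 to 0.44 with a median of 0.17. The ranges overlapped, and the difference between these sets was not tested.

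**Figure D3:**
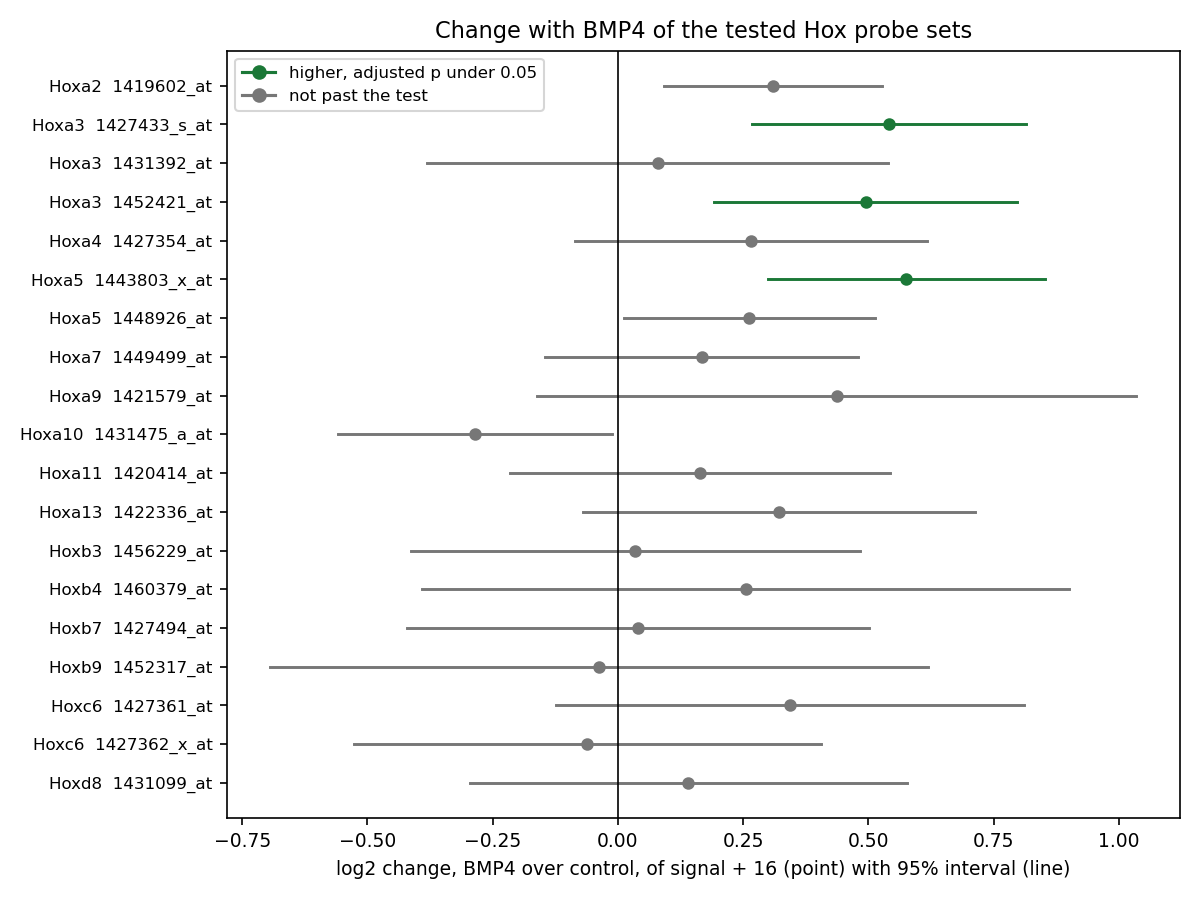
Log2 change with BMP4 of the 19 tested Hox probe sets, in cluster order from top to bottom, with points for the limma estimate on the log2(signal + 16) scale and lines for the 95% interval. The 3 green probe sets of Hoxa3 and Hoxa5 passed the adjusted test, all lines outside the HoxA cluster cross 0, and Hoxa10 is the only HoxA probe set left of 0.

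Outside HoxA no tested probe set passed. Hoxc6 gave log2 changes of 0.34 on 1427361_at (95% interval -0.12 to 0.81, limma adjusted p = 0.375) and -0.06 on 1427362_x_at (-0.53 to 0.41, adjusted p = 0.903). On the second of these the signals were 88.6, 43.1 and 49.7 with BMP4 and 64.5, 54.5 and 65.2 without, so BMP4 replicate 1 alone was above the control arrays. Hoxb7 gave 0.04 (95% interval -0.42 to 0.50, limma adjusted p = 0.937), Hoxb3 0.04 and Hoxb9 -0.04. Hoxb4 gave 0.26 and Hoxd8 0.14, with 95% intervals of -0.39 to 0.90 and -0.30 to 0.58.

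Noncoding genes named for Hox clusters were read by few probe sets, and 0 of 2 tested passed in either direction with limma (1 higher at an unadjusted p under 0.05). Hoxd3os1, named as an opposite-strand gene of Hoxd3, had signals of 37.6, 48.5 and 37.4 with BMP4 and 32.4, 20.1 and 19.3 without it. Its groups did not overlap, and the log2 change was 0.53 (95% interval 0.09 to 0.97, limma adjusted p = 0.143). Hoxd3 itself passed background on 1 BMP4 array alone. The other tested noncoding gene was Hoxb5os, which was above background on all 6 arrays. It had signals of 73.9, 72.5 and 64.3 with BMP4 and 30.6, 52.0 and 66.3 without it. Its groups overlapped, and the log2 change was 0.43 (95% interval -0.02 to 0.88, limma adjusted p = 0.248). Of 11 tested genes that lie next to a Hox cluster, 0 rose and 1 fell (9.09%), beside 5.03% of all genes called higher and 5.66% called lower. This was Mtx2, a mitochondrial import gene beside HoxD, with signals of 331.5, 377.9 and 355.4 with BMP4 against 461.3, 438.5 and 430.6 without (log2 -0.31, limma adjusted p = 0.0253). The call was lost without the intensity trend, with a replicate block and without any 1 array other than BMP4 replicate 2.

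Hox proteins bind DNA together with TALE homeodomain cofactors of the Pbx, Meis and Pknox families. Of 7 tested cofactors 0 rose and 1 fell, Meis2 (14.3%, beside 5.66% of all genes lower and 5.03% higher), and the list's median log2 change was -0.11, beside 0.03 over all genes. Meis2 had signals of 895.7, 890.9 and 897.6 with BMP4 and 1162.7, 1145.6 and 1115.9 without it on its brightest probe set. The groups were far apart relative to their spread, with means of 895 ± 3.45 with BMP4 and 1141 ± 23.7 without (SD, n = 3 each) and a log2 difference of -0.35 ± 0.06 (SE; limma adjusted p = 0.00424), which did not pass without the intensity trend (adjusted p = 0.0545). A further Meis2 probe set fell by 0.26 on the log2 scale (adjusted p = 0.0468), one gave -0.38 (adjusted p = 0.153) and a dim one 0.15 (adjusted p = 0.75). At an unadjusted p under 0.05 there were 3 lower cofactors and 0 higher, with no share of all genes at that threshold to set beside them.

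Polycomb complexes keep Hox genes silent by marking histones, and trithorax-type enzymes keep them active. Of 23 tested Polycomb genes 3 rose and 0 fell by limma (13% higher, beside 5.03% of all genes higher and 5.66% lower, with 2 lower and 3 higher at an unadjusted p under 0.05), and the median was 0.03, as over all genes. Ezh2, the methyltransferase of the H3K27 mark, had 332.1, 342.1 and 365.7 with BMP4 and 228.0, 239.2 and 234.1 without it, a log2 difference of 0.54 ± 0.08 (SE; limma adjusted p = 0.00113). Pcgf5, a subunit of a Polycomb ubiquitin ligase, had 172.3, 141.2 and 157.4 against 98.6, 92.0 and 96.3 without BMP4, a log2 change of 0.63 ± 0.11. On its dimmer probe set Pcgf5 gave 0.36 (limma adjusted p = 0.178). Phc2, a subunit of a repressive complex, rose by 0.34 on the log2 scale (limma adjusted p = 0.0117). It did not pass where arrays were centred on their medians (adjusted p = 0.114) or without the intensity trend (0.0855), and its dimmer probe set gave 0.26 (adjusted p = 0.176).

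Of 13 tested trithorax-type and H3K27 demethylase genes 0 rose and 0 fell with limma (1 higher and 0 lower at an unadjusted p under 0.05), beside 5.03% of all genes higher and 5.66% lower. The smallest p belonged to Kmt2a, the methyltransferase that maintains Hox expression, with a log2 change of 0.25 (95% interval 0.03 to 0.47, limma adjusted p = 0.169), while its other probe set gave -0.20 (adjusted p = 0.41). Of 2 tested genes among Cdx factors and other Hox inducers, 0 rose and 0 fell by limma, with 1 lower at an unadjusted p under 0.05. This was Egr2, which switches on Hox genes in the mouse hindbrain, whose log2 difference was -0.41 (limma adjusted p = 0.0759). It passed with the replicate number as a block (adjusted p = 0.0371), with median centring (0.0337) and without BMP4 replicate 2 (0.0268). A dimmer Egr2 probe set had 73.1, 166.2 and 87.7 with BMP4 and 191.4, 198.3 and 253.9 without it, a fall of 0.94 on the log2 scale that passed the test (limma adjusted p = 0.0239).

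Other factors of body position and limb field moved in both directions, with 1 of 14 tested genes higher (7.14%, close to the 5.03% of all genes) and 3 lower (21.4%, beside 5.66% of all genes). Foxd1, a factor of kidney stroma and the eye, had 344.3, 362.9 and 329.4 with BMP4 and 265.3, 220.8 and 237.3 without it, a log2 difference of 0.49 ± 0.09 (SE; limma adjusted p = 0.00438). Irx5, a homeobox gene of heart and limb patterning, had 365.8, 426.4 and 377.1 with BMP4 and 633.6, 549.5 and 517.6 without it, a log2 difference of -0.52 ± 0.09 (SE; adjusted p = 0.00413). In both genes the groups lay well apart. Emx2, which acts in the forebrain, the urogenital system and the shoulder blade, gave -0.56 (limma adjusted p = 0.0306). Tbx18, a T-box factor of somites and the ureter, gave -0.40 (limma adjusted p = 0.04), while its less bright probe set had a value of -0.50 (adjusted p = 0.0511). The calls of Foxd1 and Irx5 held in all 17 alternatives tried, while that of Emx2 was lost in 6 and that of Tbx18 in 8 of 17.

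**Figure D4:**
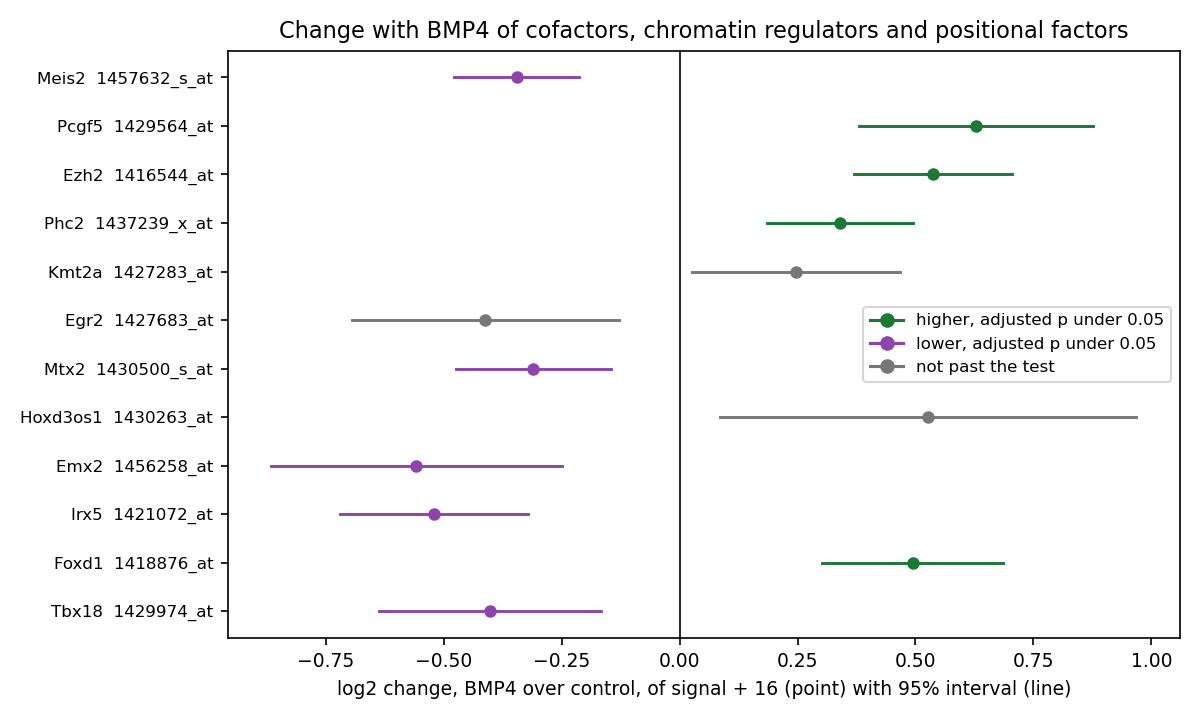
Log2 change with BMP4, on the log2(signal + 16) scale with 95% intervals, for the named cofactor, chromatin, neighbouring and positional genes, 1 probe set a gene. Pcgf5, Ezh2, Phc2 and Foxd1 were higher, Meis2, Mtx2, Emx2, Irx5 and Tbx18 were lower, and the grey genes did not pass the test.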

How the data were processed

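The values are signal intensities on a linear scale, which the authors deposited after processing with GCOS 1.3, per the submitters' processing notes. The labels name no scaling, background correction or genome build. The equal trimmed means are those of a global scaling, which hides a shift common to most transcripts. Probe sets were named from the platform annotation (34958 with 1 symbol, 932 with several, 9211 with none). Probe sets with several symbols or none entered the fit and its adjustment but named no gene, and RefSeq on GRCm38.p6 served for gene neighbours and promoters, which matched 19 of the 33 genes.

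Without the 64 control probe sets, log2(signal + 16) was taken, and limma 3.58.1 in R 4.3.3 (lmFit, eBayes with an intensity trend, two-sided) was run on 27022 probe sets, with a threshold of 0.05 on the adjusted p. The test was checked on simulated data whose spreads were shuffled across probe sets. That check therefore does not cover the intensity trend, without which no Hox probe set passed. A gene was represented by its tested probe set with the highest mean. Named were all Hox genes above background in either group or called, and up to 5 called genes per list, or the smallest p; others, given as counts, ranges or examples, were chosen after their values were seen. The members and lists were chosen with earlier results of these data known. Arrays limit precision by their number, 3 a group. Replicate numbers were not used to pair the samples, because the labels do not say that they do. Deviations of same-numbered arrays correlated at 0.010, -0.0026 and -0.072, and those of differently numbered arrays at -0.070 to 0.079. Such values cannot show whether samples were handled in pairs.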

Additional observations from a re-analysis of the deposited data

How the results depend on the processing

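The limits of these results are the small number of arrays and the low signals: 18 of the 33 genes were too dim to test. The 2464 changed probe sets became 1422 without the intensity trend, and 1622 to 1996 without 1 array, the lowest without control replicate 2. The 3 higher Hox probe sets became 1 with median centring, 0 without the trend and 0 to 2 without 1 array. The 1 higher Hox gene became 0 with median centring or without the trend and 0 to 1 without 1 array, and 2 where any probe set of a gene counted. No Hox probe set was lower under any of the 17 alternatives. Hox genes above background with BMP4 numbered 14 by each array's own line, 14 by the 95th percentile of bacterial signals, 5 at 2 times the line and 11 to 14 without 1 array, and in control cells 15, 13, 5 and 8 to 12. The 9 called genes of the other lists became 5 without the trend (an alternative run on this count chosen after seeing the data) and 6 to 8 without 1 array. The signs below leave out the tested Hoxb3, Hoxb4, Hoxb9 and Hoxd8, whose log2 changes were not followed through the alternatives. Signs turned for uncalled values near 0: Hoxa3 on 1431392_at with quantile normalization (-0.0037), median centring (-0.015) and without 1 array (-0.13 to 0.27, lowest without BMP4 replicate 1), Hoxb7 with quantile normalization (-0.050), cyclic loess (-0.049), median centring (-0.055) and without 1 array (-0.13 to 0.14, below 0 without BMP4 replicate 1 or control replicate 2), and Hoxc6 on 1427362_x_at without 1 array (-0.31 to 0.10, above 0 without BMP4 replicate 2 or 3). With the replicate number as a block, 2090 probe sets changed, 2 Hox probe sets and 1 Hox gene were higher and 0 lower, and 9 list genes changed. The cause of these differences was not tested.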
